A study of Mus musculus with 18 samples.

Results

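The genes described here encode the proteins of the cytosolic ribosome. They are all genes of the count table whose symbol is Rpl, Rplp or Rps followed by a number, with an optional letter or paralog suffix, which gave 82 of 20105 genes. Of these, 51 name proteins of the large subunit, the 3 stalk proteins included, and 31 name proteins of the small subunit. The choice used symbols only and no measured value.

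The data are nuclear RNA counts from the livers of 6 female HEP-INTACT mice, whose tagged hepatocyte nuclei are captured by immunoprecipitation (IP). Food was removed from 3 mice for 16 h from zeitgeber time 12, the onset of the dark phase in which mice eat, and 3 mice fed ad libitum were taken at the same clock time. Each mouse gave a fresh liver IP, the supernatant nuclei left by that IP, and an IP from frozen liver, so that 18 libraries form 6 groups of 3. Every mouse carries the tag, all are female, and the labels give neither the age nor the allele that drives the tag. Libraries are called A, B and C after the letters of the count table.

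Cells need most ribosomal proteins in equal numbers, and their genes are among the most strongly transcribed. In mice their mRNAs begin with a C followed by a run of pyrimidines, the terminal oligopyrimidine (TOP) motif, through which mTOR and Larp1 control their translation when nutrients change. Fasting lowers mTOR activity in liver, and much of what is known of ribosomal protein output in fasting concerns translation of existing mRNA. Nuclear RNA, with its introns, lies before that step.

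A run here is at least 6 C or T in a row within 20 bases of the annotated start. Stretches around the start of transcription are shown for 6 genes with such a run and for 2 without one. They are from RefSeq (GRCm38.p6, which is mm10), read on the strand of the gene from 40 bases before the start to 15 bases into the transcript, and capitals mark the run. Rpl10a, Rps9, Rps26, Rpl28 and Rpl13a were among the members that rose most on fasting, Rpl14 has one of the longer runs, Rpl41 rose without a run, and Rpl22 had the smallest change. These are examples and do not compare genes with and without a run. In fresh IP 55.3% of tested members with a run rose, and 55.6% of those without one. The largest log2 change without a run was 1.19, that of Rps28, which is not shown. The run of Rpl13a goes on past the printed end. A run is a looser mark than the TOP motif: that of Rpl10a ends before the annotated start, and those of Rps26 and Rpl13a begin after it. In order they lie at chr17:28328431-28328485, chr7:3704001-3704055, chr10:128626492-128626546, chr7:4792925-4792979, chr7:45128731-45128785, chr9:120571477-120571531, chr10:128549154-128549208 and chr4:152324396-152324450, with Rps26, Rpl13a and Rpl41 on the minus strand and the others on the plus strand.
Rpl10a: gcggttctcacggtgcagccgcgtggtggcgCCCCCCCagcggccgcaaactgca
Rps9: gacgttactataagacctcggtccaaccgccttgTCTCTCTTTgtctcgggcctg
Rps26: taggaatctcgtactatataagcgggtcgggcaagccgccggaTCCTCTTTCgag
Rpl28: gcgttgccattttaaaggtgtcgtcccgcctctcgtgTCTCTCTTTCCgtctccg
Rpl13a: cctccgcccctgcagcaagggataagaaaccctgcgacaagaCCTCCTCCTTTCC
Rpl14: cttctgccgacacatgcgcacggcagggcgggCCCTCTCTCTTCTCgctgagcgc
Rpl41: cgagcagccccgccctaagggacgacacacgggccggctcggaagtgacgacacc
Rpl22: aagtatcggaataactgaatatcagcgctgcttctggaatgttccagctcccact

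RefSeq starts were found for 62 members. A run of at least 6 C or T on the transcribed strand, within 20 bases on either side of the start, stood at 41 of them (66.1%) and at 42.7% of the 15228 other genes with a start. The letters CCGGAAG, searched on both strands over the 300 bases from 250 before to 50 after the start, stood at 24 members (38.7%) and at 12.4% of other genes. TATAAA, searched in the same way, stood at 7 members (11.3%) and at 12.7% of other genes. Matches are letters in a window and not measured sites, and annotated starts can lie a few bases from the start that cells use.

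Members are short genes. Their median transcribed length was 3018 bases (852 to 11772), against 17052 in all other genes, and 85.4% were under 5 kb, against 22.2% of other genes. Exons made up a median of 28.7% of that length, against 15.1% elsewhere. A small nucleolar RNA (snoRNA) gene lay inside 29 members (35.4%) and inside 1.01% of other genes, and these 29 held 55 snoRNA genes, among them 5 in Rpl4 and 4 in Rpl13a. The length deposited with the counts spans the whole transcribed region, while the counting tool is not given. If reads were counted over that region, those from introns and from any snoRNA inside one add to the host's count.

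The libraries held 13828945 to 54434263 counts each, and the members together took 0.0585 to 0.111% of them. Hepatocyte markers (10 of 10 measured, Alb and Cps1 among them) summed to 14219 to 29583 CPM (counts scaled to library size) in the 12 IP libraries and to 543 to 1503 CPM in the 6 supernatants. Kupffer cell and macrophage markers (7 of 7 measured) summed to 5.87 to 91.2 CPM in IP and to 3229 to 6730 CPM in supernatant. Endothelial markers (7 of 7) summed to 25.7 to 177 CPM in IP and to 1921 to 2936 CPM in supernatant. Lymphocyte markers (7 of 7) summed to 8.36 to 60.1 CPM in IP and to 1974 to 3381 CPM in supernatant. Cholangiocyte markers, of low count in both fractions, summed to 1.87 to 10.1 CPM in IP and to 1.5 to 3.25 CPM in supernatant. Of the 5 listed 3 could be tested, and 2 were higher in IP and 1 lower, by -3.58 on the log2 scale. Hepatocyte RNA thus fills the IP libraries as labelled, while the few bile duct markers tested went in both directions. Of all marker genes, the globins Hba-a1 and Hbb-bs were at 0 in every group. Library B of frozen IP from fed mice stood apart, with the fewest counts and the highest Kupffer, endothelial and lymphocyte sums of the IP libraries. Values without it are given for the members described below that it moved most. The label of a frozen IP library from a fed mouse holds a library number outside the run of all others. No label gives the letter of that library, so whether it is library B is not known. In such bulk libraries, fewer cells of a type and less RNA per cell cannot be told apart.

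Of the 82 members, 75 had enough counts to be tested in every comparison. Rpl10l, a retrogene copy of Rpl10, had 0 counts in all 18 libraries, Rpl26 had 1 count in total, Rps27 had 2, Rpl39l had 5, Rpl30 had 13 and Rpl34 had 70, and none of these 6 entered a test. Rpl3l, the muscle paralog of Rpl3, had 99 counts in total (0 to 17 per library) and entered only the comparison of frozen with fresh liver. Rpl26, Rps27, Rpl30 and Rpl34 encode core proteins of the ribosome, yet had almost no counts. Ribosomal protein genes have many processed pseudogenes, and how reads that map to several places were counted is not given in the sources used here. Whether that sets these values was not tested.

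Per kilobase of transcribed region, the 75 tested members had a median level of 2.9 CPM over the 18 libraries (0.902 to 8.41), against 0.986 in all 14322 genes tested in fresh liver. Rps2, a small subunit protein near the mRNA entry site, had the highest mean at 8.41 CPM per kb. Next came Rpl41, the shortest ribosomal protein, at 8.07 and Rpl10, a late-joining protein of the large subunit, at 7.26. The order differed by group. Rps2 led in fresh IP of fed mice (7.08) and frozen IP of fasted mice (12), Rpl10a (11.0) and Rpl41 (10.9) in fresh IP of fasted mice, and Rpl41 in supernatant of fed (8.03) and fasted (7.75) mice. In frozen IP of fed mice Rpl5 led at 15.9, a mean that rests on library B. The lowest tested member was Rps27l, a paralog of Rps27 that p53 induces, at 0.902 CPM per kb.

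Fasting raised the ribosomal protein genes in hepatocyte nuclei. In fresh IP 43 of the 75 rose and 0 fell, all 75 had a positive change, and the median log2 change was 0.62, against 0.01 over all genes tested. Of all 12548 genes tested, 12.4% rose and 25.1% changed in either direction (edgeR quasi-likelihood test, Benjamini-Hochberg adjusted p under 0.05). The 3 fasted libraries all lay above the 3 fed ones in 61 members (81.3%) and below them in 0, against 22.5% and 22.3% of all genes. Both subunits took part, with 24 of 45 large subunit and 19 of 30 small subunit genes called and medians of 0.62 and 0.63.

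Summed over members, CPM were 676, 705 and 619 in the fed libraries A, B and C of fresh IP and 1146, 858 and 1030 in the fasted ones. Fasted A was the highest and fasted B the nearest to the fed libraries. The summed hepatocyte markers took the same order among fasted libraries, at 29583, 20786 and 27492 CPM, and stood at 21550, 19741 and 14219 CPM in fed ones. By the test 3 of the 10 rose and 1 fell (median log2 change 0.41). Of other liver cells, stellate and endothelial markers were lower in value. Stellate markers summed to 63.2 to 121 CPM in fed and 44.8 to 57.9 CPM in fasted libraries (1 of 6 fell, median -0.78). Endothelial markers summed to 44.2 to 91.2 and 25.7 to 53.2 CPM (0 of 7 called, median -0.62). Kupffer markers had a median of 0.05 with 0 called, and lymphocyte markers one of -0.56, with 1 of 5 higher and 0 lower. The part of these markers in the result was not tested. The other genes under 5 kb took 1.32 to 1.53% of counts in fed and 1.21 to 1.41% in fasted libraries, and 10.9% of the 1262 of them tested rose, with a median log2 change of 0.09.

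**Figure D1:**
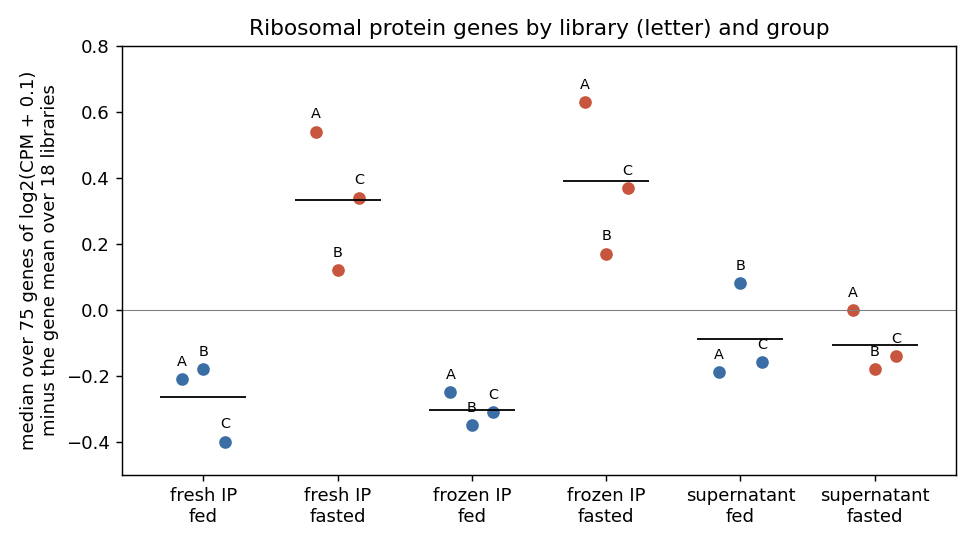
Level of the ribosomal protein genes in each of the 18 libraries, as the median over 75 genes of log2(CPM + 0.1) minus the gene's mean over all libraries (y axis, log2), by group (x axis). Points are libraries with their letter, blue fed and red fasted, and bars are group means; the 6 fasted IP libraries lie between 0.12 and 0.63, the 6 fed ones between -0.40 and -0.18, and supernatants between -0.19 and 0.08.

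Members with the largest changes came from both subunits. Rpl10a, which forms the mobile L1 stalk of the large subunit (chromosome 17, 28328471 to 28331033 on mm10), was at 14.0, 13.5 and 9.48 CPM in fed and 29.4, 21.8 and 33.7 CPM in fasted libraries, a log2 change of 1.22 ± 0.25 (SE; adjusted p = 0.0063). Rps28, a small subunit protein at the mRNA exit site (chromosome 17, 33823037 to 33824498), was at 2.92, 3.43 and 3.15 CPM in fed and 8.33, 5.53 and 7.57 CPM in fasted libraries, a change of 1.19 ± 0.19 (adjusted p = 0.00677). The groups do not overlap in either gene, and fasted B is the lowest fasted library in both. Rps26, which touches mRNA in the exit channel, was at 2.6, 3.21 and 2.33 CPM in fed and 6.11, 4.86 and 5.57 CPM in fasted libraries, with a change of 1.05 ± 0.16 (adjusted p = 0.0095). Again no fasted library reached down to a fed one.

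Of the 3 stalk proteins, which recruit the elongation factors, Rplp0 and Rplp2 rose. Rplp0, the base of the stalk, was at 6.12, 5.71 and 5.38 CPM in fed and 11.1, 9.19 and 10.1 CPM in fasted libraries, a log2 change of 0.84 ± 0.09 (adjusted p = 0.00681). Rplp2 changed by 0.86 ± 0.17 (adjusted p = 0.0131), and its call was lost without fasted A (0.75). Rplp1, their partner, was at 1.73, 3.21 and 1.3 CPM in fed and 3.29, 2.66 and 2.95 CPM in fasted libraries, a change of 0.56 ± 0.38 that did not pass (adjusted p = 0.25), and the groups overlap because fed B is high. Without that library its change was 0.98 (adjusted p = 0.0468).

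Rpl5 and Rpl11, which bind 5S rRNA and, when free, the p53 regulator Mdm2, did not pass. Rpl5 was at 37.0, 64.1 and 34.4 CPM in fed and 52.5, 57.8 and 71.6 CPM in fasted libraries, a log2 change of 0.45 ± 0.31 (adjusted p = 0.206). Fed B is again the high one, and without it Rpl5 changed by 0.78 (adjusted p = 0.0237). Rpl11 changed by 0.46 ± 0.25 (adjusted p = 0.138). Rps6, the substrate of S6 kinase, was at 9.96, 8.43 and 10.9 CPM in fed and 18, 11.3 and 14.7 CPM in fasted libraries. Its groups do not overlap, yet its change of 0.60 ± 0.23 missed the threshold (adjusted p = 0.0626) and passed it by DESeq2 (0.58, adjusted p = 0.0385) or without fasted B (0.76, adjusted p = 0.0272).

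Rpl13a, also known for a role in silencing inflammatory mRNAs, was at 15.1, 15.8 and 13.6 CPM in fed and 29.3, 22.6 and 31.2 CPM in fasted libraries, a log2 change of 0.92 ± 0.15 (adjusted p = 0.00547). Rpl3, which reaches the peptidyl transferase centre, changed by 0.82 ± 0.22 (adjusted p = 0.0199), and its call was lost without fed B. Rps3, at the mRNA entry, changed by 0.71 ± 0.19 (adjusted p = 0.0264) and lost its call when any library except fasted B was left out, with values of 0.62 to 0.76. Rps27a, made as a fusion with ubiquitin, changed by 0.58 ± 0.10 (adjusted p = 0.0242) and lost its call without fed B, fed C, fasted A or fasted C. Rps4x, the X-linked S4 protein, changed by 0.41 ± 0.18 and was not called (adjusted p = 0.146).

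The 3 tested paralogs, which can replace or accompany the common proteins, did not pass. Rpl22l1 changed by 0.57 ± 0.27, Rps27l by 0.49 ± 0.15 and Rpl7l1 by 0.36 ± 0.12 (adjusted p = 0.149, 0.107 and 0.0739). Rpl22, the partner of Rpl22l1, had the smallest change of all members, at 17.8, 14.6 and 19.4 CPM in fed and 20.3, 15.3 and 18.1 CPM in fasted libraries, or 0.07 ± 0.18 (adjusted p = 0.785).

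Members with a pyrimidine run at the start had a median log2 change of 0.67 (21 of 38 tested rose), and those with a RefSeq start but no run had 0.59 (10 of 18). Hosts of snoRNA genes had a median of 0.67 (17 of 28 rose) and other members 0.62 (26 of 47). Members under 5 kb had 0.62 (36 of 64) and longer ones 0.68 (7 of 11). Over all tested members the quartiles were 0.48 and 0.80, and no test compared these classes.

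How many members passed depended on the libraries. The count was 13 without fasted A, 19 without fed A, 23 without fed C, 23 without fasted C, 25 without fed B and 44 without fasted B, while the median log2 change stayed between 0.51 and 0.74. In the authors' deposited table of the same comparison 47 of 76 members with an adjusted p rose and 0 fell, with 13.7% of all genes higher.

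**Figure D2:**
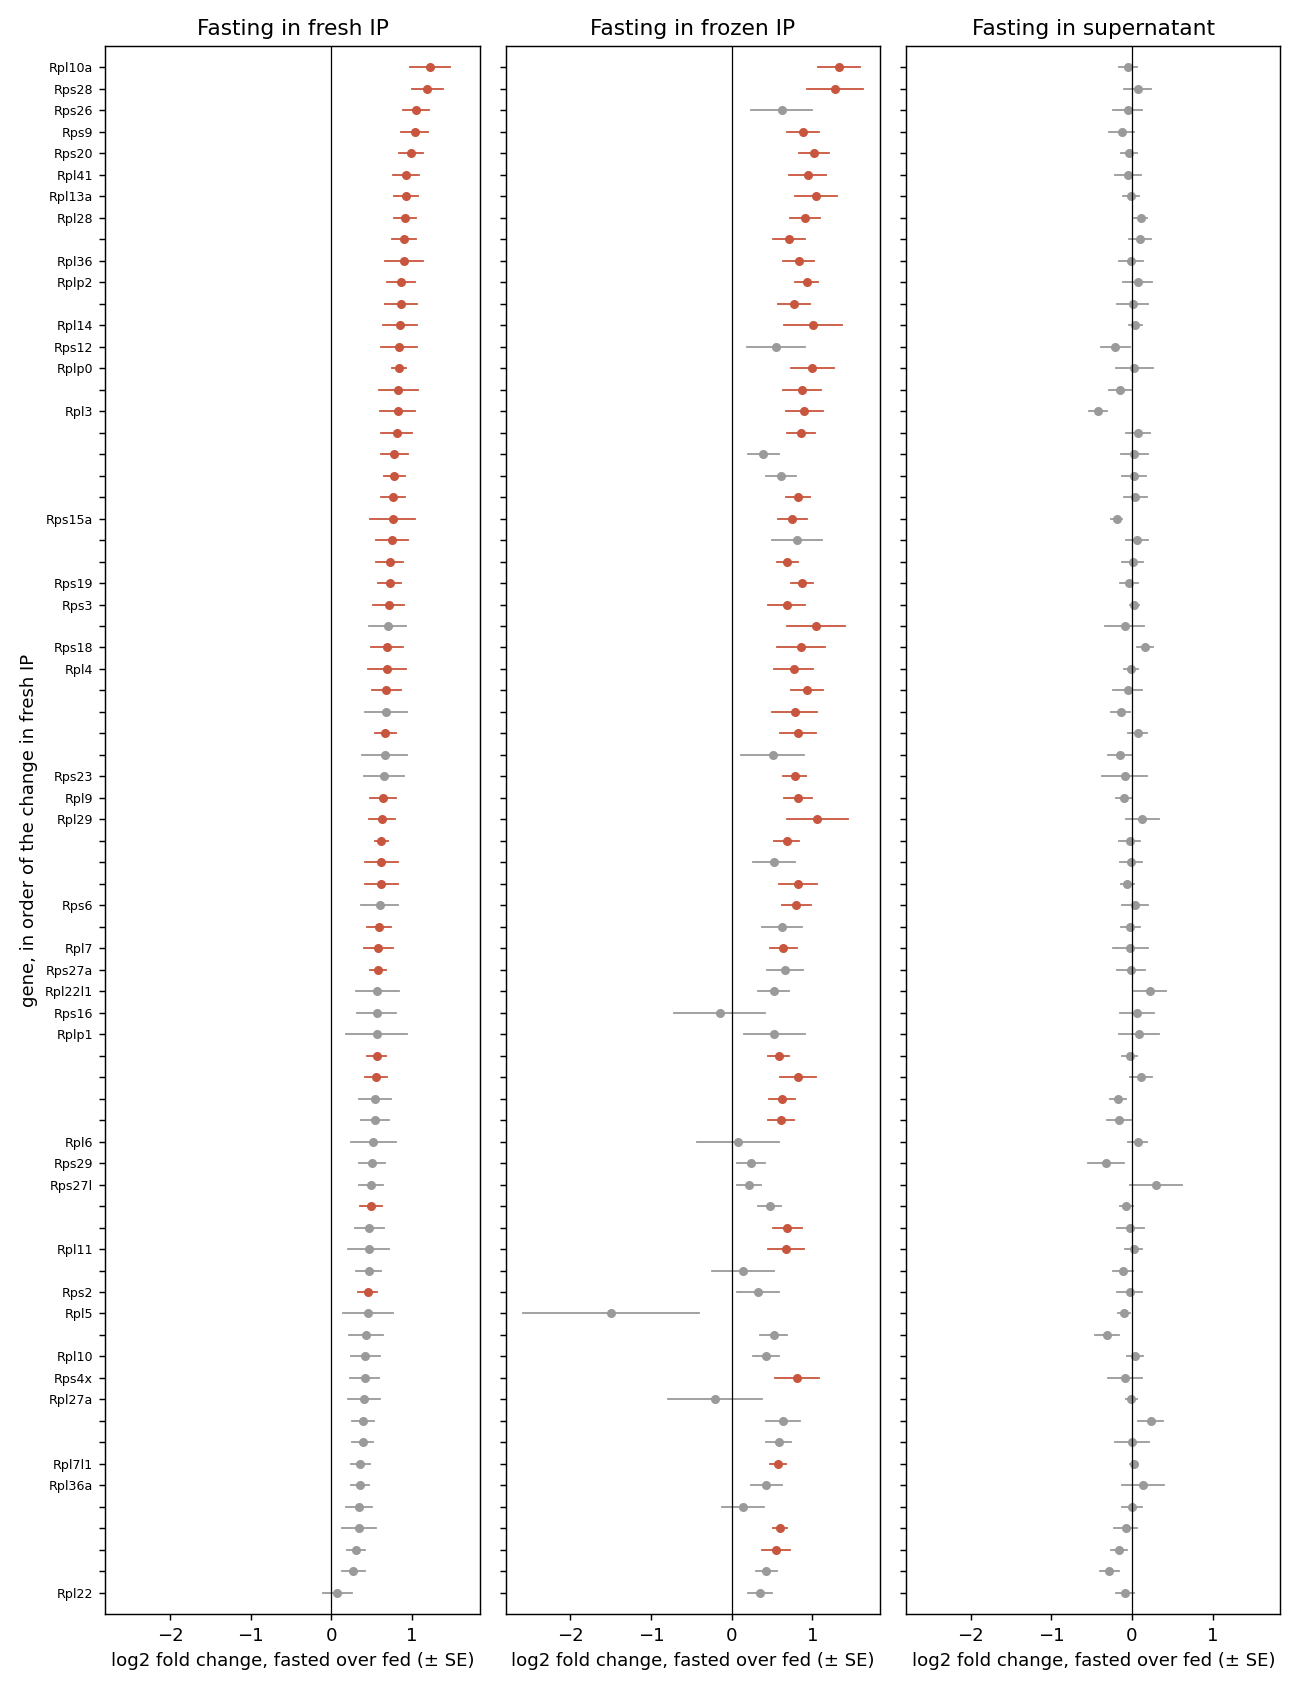
Log2 fold change, fasted over fed (x axis, ± SE), of 72 of the 75 tested ribosomal protein genes (y axis, ordered by fresh IP, with the genes named in the text labelled) in fresh IP, frozen IP and supernatant, each from 3 fed and 3 fasted libraries. Red points passed adjusted p under 0.05 and grey ones did not; changes centre near 0.62 and 0.68 in the IP panels and near -0.01 in supernatant, and Rpl5 stands at -1.50 in frozen IP.

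Frozen liver of the same mice gave a similar picture, which is not independent because both IPs come from the same animals. There 45 of 75 members rose and 0 fell, 72 were positive, and the median log2 change was 0.68, where 11% of all 12926 genes tested rose. Fasted libraries all lay above the fed ones in 57 members (76%), as in 23.7% of all genes. Members called in both preparations numbered 33, or 76.7% of those called in fresh and 73.3% of those called in frozen liver. In the authors' deposited table, of 76 members with an adjusted p, 53 rose and 0 fell, with 13.8% of all genes higher. Hepatocyte markers summed to 14724 to 19632 CPM in fed and 19974 to 26948 CPM in fasted libraries. Stellate markers were at 70 to 113 and 46.6 to 57.9 CPM (4 of 7 fell, median log2 change -0.95), endothelial markers at 123 to 177 and 75.6 to 115 CPM (2 of 7 fell and 1 rose, median -0.79), and all 7 Kupffer markers had a negative change (0 called, median -0.71). The part of any of these was not tested.

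Rpl10a was again the highest, at 12.9, 9.95 and 11.4 CPM in fed and 30.1, 20.6 and 35.8 CPM in fasted libraries, with a log2 change of 1.33 ± 0.26 (adjusted p = 0.00568). Rps28 changed by 1.28 ± 0.35 (adjusted p = 0.0171) and Rpl29, a small basic protein of the large subunit, by 1.06 ± 0.38 (adjusted p = 0.0369). Rpl29 was at 4.14, 1.82 and 3.34 CPM in fed and 8.04, 6.19 and 5.68 CPM in fasted libraries, and its call was lost without fed C or any 1 of the 3 fasted libraries. Calls of Rps28, Rplp0, Rpl13a, Rplp2, Rpl3, Rps6, Rpl11, Rps4x and Rpl7l1 were lost without fasted A. Those of Rpl11 and Rps4x were also lost without fed C, fasted B or fasted C, and that of Rps4x without fed A. Rplp0 lost its call without fasted C too, and Rpl7l1 without fed C.

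Rplp0 changed by 1.0 ± 0.27 (adjusted p = 0.0203) and Rplp2 by 0.93 ± 0.14 (adjusted p = 0.0107), while Rplp1 changed by 0.53 ± 0.38 (adjusted p = 0.271), or 0.89 (adjusted p = 0.0548) without fed B. Rpl13a changed by 1.04 ± 0.26, Rpl3 by 0.90 ± 0.23 and Rps3 by 0.68 ± 0.23, and all 3 passed, though Rps3 lost its call when any library except fasted B was left out (0.51 to 0.79; 0.57 without fed B). Rps6 (0.80 ± 0.18, adjusted p = 0.0169), Rpl11 (0.67 ± 0.22, adjusted p = 0.038), Rps4x (0.81 ± 0.27, adjusted p = 0.038) and Rpl7l1 (0.57 ± 0.10, adjusted p = 0.0198) passed here and not in fresh liver. Each of these calls was lost when certain single libraries were left out, as given above. In all, 12 members passed here and not in fresh liver. The reverse held for 10 of the 43 called in fresh liver, among them Rps26 (0.62 ± 0.38, adjusted p = 0.19, and 0.94, adjusted p = 0.0583, without fed B) and Rps27a (0.66 ± 0.22, adjusted p = 0.0567). The fasting response was not called different between frozen and fresh IP in any of 76 members (0% of 13162 genes, edgeR interaction; 0 members and 43 genes had an unadjusted p under 0.05, and DESeq2 called 0). The median difference over members was 0.06.

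The count of calls was 5 without fasted A, 16 without fasted C, 19 without fed C, 23 without fed A, 35 without fasted B and 38 without fed B, and the median log2 change stayed between 0.53 and 0.80.

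One library of frozen IP stood apart in the members that host snoRNA genes. Fed B had the fewest counts of all 18, 13828945. Set against the mean of fed A and C, the 28 tested hosts had a median log2 ratio of 0.39 (-0.63 to 3.22) in fed B and the 47 other members -0.20 (-1.0 to 0.97). In 11 hosts and 2 other members the ratio was over 0.5.

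Rpl5, with 3 snoRNA genes inside, was at 37.1, 333 and 34.0 CPM in fed A, B and C, 9.34-fold over the mean of fed A and C. Rpl27a was at 10.5, 34.2 and 11.9 CPM, and Rps16 at 7.06, 19.2 and 5.7 CPM. Rpl6 was at 11.7, 31.2 and 11.2 CPM. These 4 host snoRNA genes and were named because they are high in fed B. Not all hosts were: Rpl4, with 5 snoRNA genes, was at 22.4, 15.2 and 21.8 CPM and Rpl13a, with 4, at 16.3, 10.8 and 14.8 CPM, or log2 ratios of -0.53 and -0.52. Fresh IP of the same letter, fed B, also had more hosts above fed A and C, with 5 of 28 hosts and 1 of 47 other members over 0.5 (medians 0.13 and 0.09).

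This library set the direction of 3 members. Rpl5 had a log2 fasting change of -1.50 ± 1.09 in frozen IP with it and 0.41 without it, Rpl27a had -0.21 and 0.51, and Rps16 had -0.15 and 0.55, none of which passed. Without fed B the median of the 28 hosts moved from 0.53 to 0.66, with 28 positive in place of 25, and that of the 47 others from 0.71 to 0.68. Kupffer cell markers were also highest in fed B among IP libraries, at 91.2 CPM, against 24 and 28.4 CPM in fed A and C. Whether the snoRNAs themselves supply the added reads was not tested, since the counts do not split a gene into its parts.

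**Figure D3:**
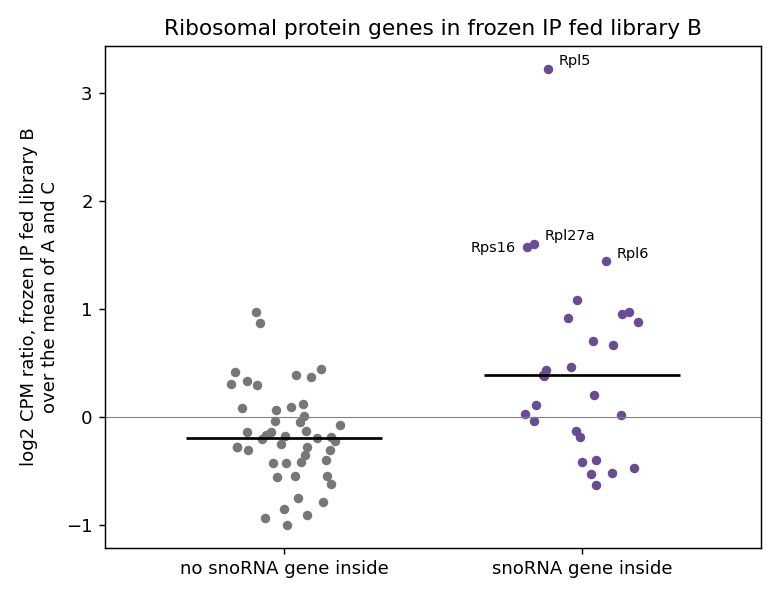
Log2 ratio of CPM in frozen IP library B of fed mice over the mean of libraries A and C (y axis) for 47 ribosomal protein genes without and 28 with a snoRNA gene inside (x axis); points are genes and bars are medians. The medians are -0.20 and 0.39, and Rpl5 is highest at 3.22.

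In the supernatant, no member was called on fasting. Of 75 tested, 0 rose and 0 fell, and 1 had an unadjusted p under 0.05, where 3.38% of all 13921 genes tested rose and 2.84% fell, 6.22% in all (edgeR). Their median log2 change was -0.01 (-0.42 to 0.30), with 33 positive and 42 negative. Summed CPM were 676, 816 and 710 in fed A, B and C and 759, 675 and 696 in fasted libraries, which overlap. In the same libraries hepatocyte markers summed to 543 to 957 CPM in fed and 903 to 1503 CPM in fasted mice (2 of 10 rose and 10 were positive, median log2 change 0.67). Kupffer markers summed to 4732 to 6730 and 3229 to 4616 CPM (0 of 7 called, median -0.44). Endothelial markers summed to 1921 to 2405 and 2257 to 2936 CPM (1 of 7 rose and 0 fell, median 0.36). Stellate and lymphocyte markers each had 1 of 7 lower and 0 higher (medians -0.42 and -0.13). The part of any of these markers was not tested. DESeq2 called 1 member, Rpl3, lower (-0.43, adjusted p = 0.00776), where it called 6.77% of all genes lower. Rpl3 was at 37.0, 38.2 and 43.7 CPM in fed and 31.7, 29.5 and 27.6 CPM in fasted supernatant, so that its groups do not overlap, and edgeR gave -0.42 ± 0.11 (adjusted p = 0.0586). Fasted libraries lay below the fed ones in 3 members and above them in 0, as they did in 14 and 15.1% of all genes.

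Rpl10a, the member with the largest change in hepatocyte nuclei, was at 13.1, 11.3 and 12.3 CPM in fed and 13, 10.6 and 11.9 CPM in fasted supernatant, a log2 change of -0.05 ± 0.11 (adjusted p = 0.847). Rps28 changed by 0.07 ± 0.17 and Rplp0 by 0.03 ± 0.23, and neither passed.

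The difference between the fasting responses of fresh IP and supernatant was itself tested. All 75 members had a larger response in IP, 14 passed and 0 passed the other way, and the median difference was 0.62 on the log2 scale, against -0.08 over all genes, of which 3.71% were called in that direction, 5.83% in the other and 9.54% in either. Rpl10a differed by 1.21 ± 0.25 (adjusted p = 0.011), Rpl3 by 1.18 ± 0.24 (adjusted p = 0.00989), Rps9 by 1.10 ± 0.21 (adjusted p = 0.00935) and Rps28 by 1.07 ± 0.23 (adjusted p = 0.0246). Rpl13a (0.87 ± 0.16, adjusted p = 0.0111) passed too. Rplp0 (0.76 ± 0.24, adjusted p = 0.071), Rplp2 (0.74 ± 0.24, adjusted p = 0.0793) and Rps3 (0.62 ± 0.18, adjusted p = 0.0655) did not pass by edgeR and passed by DESeq2.

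DESeq2 called 28 members in this test, all larger in IP, and 6.52% of all genes in that direction. A fit that blocks on the library letter, taken as the animal, called 20 members and 3.87% of all genes. The edgeR count was 4 without fasted A of the IP or fed B of the supernatant, 5 without supernatant fed C or fasted B, 6 without IP fed A, 7 without supernatant fasted A or C, 8 without IP fed C, 9 without IP fed B and 23 without IP fasted B. Rps28 lost its call without IP fed A or fasted A, or supernatant fed B, fasted A or fasted B, with values of 0.92 to 1.10. The median difference stayed between 0.50 and 0.71.

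Between fractions, ribosomal protein genes differed in both directions. Averaged over feeding states, 19 members were higher and 12 lower in fresh IP than in supernatant, with a median log2 difference of 0.12, where 42% of 14322 genes were higher and 43% lower, 85.1% in all. That is 31 of 75 members, a share under that of all genes. The averaged value covers opposite states: in fed mice 9 members were higher and 21 lower (median -0.21; 38.3% and 40.5% of all genes, 78.9% in all), and in fasted mice 43 were higher and 0 lower (median 0.42; 39.1% and 40.8% of all genes, 79.9% in all). The test of that change between states is the one given above. With DESeq2 size factors the split in fed mice was 5 higher and 26 lower, and without fasted A of the IP the count in fasted mice was 28. In fasted mice Rplp1 was called lower in IP by DESeq2 (-0.74, adjusted p = 0.0239) and by edgeR with DESeq2 size factors (-0.74, adjusted p = 0.0376). The fit that blocks on the letter also called it lower (-0.65, adjusted p = 0.00484). These fits called 41.2 to 43.3% of all genes lower. EdgeR called Rplp1 lower without IP fed B, IP fed C or supernatant fed B, and Rps4x (-0.48, adjusted p = 0.0458) without IP fasted A.

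Among the highest in IP on average were Rps27l (0.95 ± 0.17, adjusted p = 0.000264), Rpl5 (0.92 ± 0.15, adjusted p = 4.77e-05) and Rps18 (0.75 ± 0.10, adjusted p = 2.04e-05). Rps27l was at 3.22, 3.38 and 2.58 CPM in fed IP and 1.15, 2.41 and 1.35 CPM in fed supernatant. In fasted mice it was at 4.85, 4.01 and 3.84 CPM in IP and 2.18, 1.83 and 2.06 CPM in supernatant. IP lies above supernatant in every library of both states.

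Lowest on average were Rplp1 (-0.87 ± 0.22, adjusted p = 0.00168), Rps9 (-0.70 ± 0.10, adjusted p = 4.55e-05), Rps23 of the decoding centre (-0.68 ± 0.19, adjusted p = 0.00327) and Rps29 (-0.67 ± 0.13, adjusted p = 0.000746). Rps9 was at 8.34, 9.44 and 8.65 CPM in fed IP and 18.6, 24.6 and 19.0 CPM in fed supernatant, a log2 difference of -1.25 ± 0.13 (adjusted p = 8.27e-06). In fasted mice it was at 20.9, 14.3 and 18.2 CPM in IP and 20.8, 18.3 and 17.8 CPM in supernatant, a difference of -0.15 ± 0.16 (adjusted p = 0.371). The fed groups stand apart and the fasted ones overlap.

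The next lowest in fed mice were Rplp1 at -1.09 ± 0.43 (adjusted p = 0.00506), Rps29 at -1.05 ± 0.17 (adjusted p = 0.000438) and Rps23 at -1.03 ± 0.32 (adjusted p = 0.00267). The highest there were Rps27l at 0.88 and Rpl5 at 0.68. Rpl36a (0.54) was called as well. It lost the call with DESeq2 size factors, or without IP fed A, IP fed C or supernatant fed A (0.38 to 0.54). In fasted mice the highest were Rpl10a (1.20 ± 0.18), Rpl5 (1.17 ± 0.12), Rps19 (1.06 ± 0.17), whose mutations cause Diamond-Blackfan anaemia, and Rpl36 (1.05 ± 0.17). Of the other named members, Rps3 (-0.52 ± 0.09), Rps4x (-0.55 ± 0.13), Rpl3 (-0.33 ± 0.12) and Rplp0 (-0.30 ± 0.12) were lower in IP on average, Rplp2 (0.38 ± 0.12) and Rpl7l1 (0.56 ± 0.06) higher, and Rps6, Rpl11, Rps27a and Rpl22l1 did not pass. Rplp0 lost this call when any 1 of 7 libraries was left out (-0.17 without supernatant fed B, adjusted p = 0.16).

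**Figure D4:**
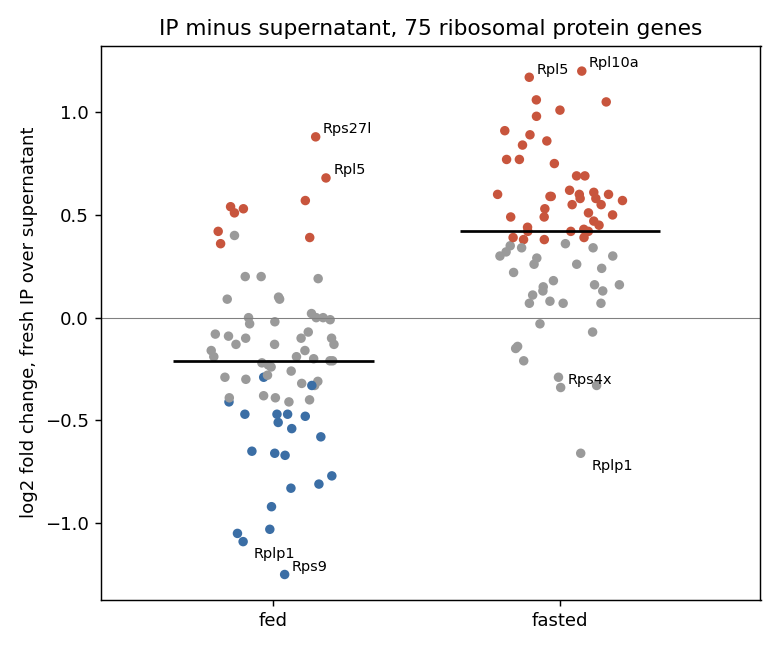
Log2 difference, fresh IP over supernatant (y axis), of 75 ribosomal protein genes in fed and in fasted mice (x axis, 3 libraries per group). Points are genes, red called higher in IP, blue called lower and grey not called, and bars are medians, which lie at -0.21 in fed and 0.42 in fasted mice.

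Freezing moved no member past the threshold when libraries were taken as independent. Of 76 members tested, 0 were called higher or lower in frozen than in fresh IP, 3 had an unadjusted p under 0.05, and the median log2 difference was 0.07, where 5.16% of all 13162 genes were called, 4.72% higher and 0.441% lower (edgeR; DESeq2 also called 0 members). The largest differences in value were Rplp1 at 0.68 ± 0.27 (adjusted p = 0.207) and Rpl5 at 0.63 ± 0.56 (adjusted p = 0.798). Rpl5 rests on fed B, without which its difference was -0.33 (adjusted p = 0.533) and that of Rplp1 0.49 (adjusted p = 0.395). Markers of cells other than hepatocytes were higher in frozen IP. Of Kupffer markers 6 of 7 passed, with sums of 5.87 to 15 CPM in fresh and 24 to 91.2 CPM in frozen IP, as did 6 of 7 endothelial, 4 of 6 lymphocyte and 2 of 7 stellate markers (medians 2.10, 1.20, 1.73 and 0.31). Hepatocyte markers had 0 called and a median of -0.07, and the part of these markers in the members' values was not tested.

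The library letter, which no label ties to a mouse, was next taken as the mouse and used as a block to remove differences between mice. With this block 6 of 76 members and 16.5% of all genes passed, a larger share of all genes than of members. Among the 6, Rplp1 (0.68, adjusted p = 0.00219), Rpl7 (0.26, adjusted p = 0.0196), Rps2 (0.38, adjusted p = 0.0128) and Rps26 (0.39, adjusted p = 0.0423) were higher in frozen liver, and Rpl22 (-0.26, adjusted p = 0.0239) was lower. Without fed B the same fit called 11 members and 26.4% of all genes, with Rplp1 at 0.70 (adjusted p = 0.000273), Rpl7 at 0.22 (adjusted p = 0.0106), Rps2 at 0.28 (adjusted p = 0.00104), Rps26 at 0.31 (adjusted p = 0.0384) and Rpl22 at -0.25 (adjusted p = 0.00555). Within feeding states the blocked fit called Rplp1 (0.73, adjusted p = 0.0261) and Rpl22 (-0.40, adjusted p = 0.0344) in fed mice and Rplp1 (0.63, adjusted p = 0.0291) in fasted mice, and of all genes 6.11% and 6.91%. EdgeR without the block called 0 members in each, with 4 and 0 members at an unadjusted p under 0.05, and DESeq2 called 0. Without the block 1.47% of all genes were called in fed mice (1.46% higher, 0.0152% lower) and 0.357% in fasted mice (0.342% higher, 0.0152% lower). Rplp1 was at 2.51, 4.97 and 2.48 CPM in fed frozen IP and 5.69, 3.53 and 4.68 CPM in fasted frozen IP, higher than in the fresh IP library of the same letter in all 6 pairs.

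Other genes of the ribosome pathway were read beside the members. Of 5 ribosomal proteins that the symbols miss, 2 rose in fresh IP, among them Gnb2l1 (Rack1), by 0.65 ± 0.20 (adjusted p = 0.0293). Among 38 genes of ribosome biogenesis 19 rose and 0 fell, with a median of 0.68. These included the pre-rRNA export factor Rrp12 (1.65 ± 0.48), the nucleolar helicase Ddx21 (1.40 ± 0.35), Gnl3 (1.22 ± 0.37) and Nolc1 (1.21 ± 0.42). RNA polymerase I and its factors had 4 of 15 higher and 0 lower, with a median of 0.41. That is 26.7% called, against 25.1% of all genes called and 12.4% higher. Among those higher was the largest subunit Polr1a (0.78 ± 0.19).

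Of 40 translation factors 21 rose and 1 fell (median 0.51). Pabpc1, the poly(A) binding protein whose mRNA also carries a TOP motif, was at 44.9 ± 8.06 CPM in the fed group and at 89.1 ± 11 CPM in the fasted group of fresh IP (SD, n = 3) and rose by 1.01 ± 0.18 (adjusted p = 0.00455). Eef2k, the kinase that slows elongation, was at 29.6 ± 11 and 8.82 ± 2.57 CPM and fell by 1.73 on the log2 scale (adjusted p = 0.00765). Regulators of ribosomal protein output had 3 of 18 higher and 1 lower (median 0.09), or 22.2% called against the 25.1% of all genes given above, with Mtor at 0.81 ± 0.13 and Eif4ebp2, a repressor of cap-dependent translation, at -0.49 ± 0.10.

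For comparison, mitochondrial ribosomal proteins had 12 of 77 higher and 0 lower in fresh IP (median 0.20). Nuclear genes of the respiratory chain had 30 of 77 higher and 1 lower (0.36), and the proteasome 30 of 37 higher and 1 lower (0.57). The shares higher were 15.6, 39 and 81.1%, against 12.4% of all genes. Those called in either direction were 15.6, 40.3 and 83.8%, against 25.1% of all genes. In supernatant the medians of all 8 related lists lay between -0.08 and 0.06. No test compared the lists.

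**Figure D5:**
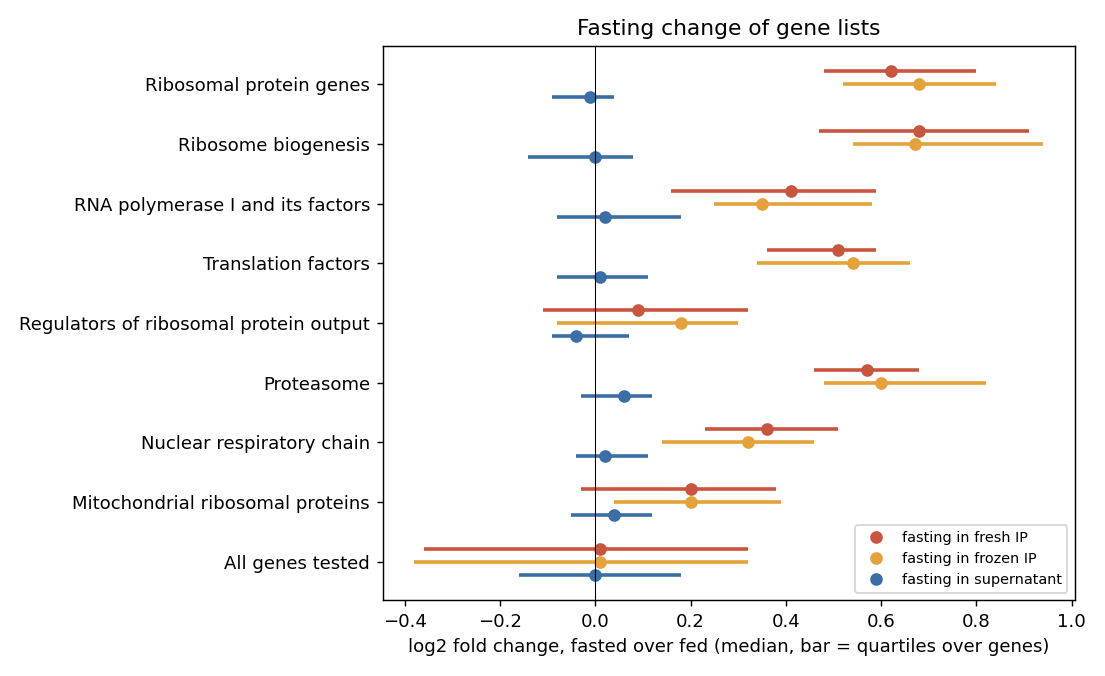
Median log2 fold change, fasted over fed (x axis; bars are quartiles over genes), of ribosomal protein genes and related lists (y axis) in fresh IP, frozen IP and supernatant, 3 fed and 3 fasted libraries each. Ribosomal protein genes stand at 0.62, 0.68 and -0.01 and all genes tested at 0.01, 0.01 and 0.00.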

How the data were processed

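The 18 libraries were stranded, used 50 to 100 ng of total RNA without poly-A selection and were read as pairs of 50 bp, per the labels' protocols. The authors deposited raw counts per gene for 20105 genes, whole numbers that were not normalized, and, for fasting in fresh and frozen IP, their log2 changes and p-values after adjustment. STAR 2.4.2a, DESeq2 1.24.0 and mm10 stand in the submitters' processing notes, with no role given, and the counting tool, its strand setting and its treatment of multiply mapped reads are not given in the sources used here. Members that overlap an antisense gene or resemble a pseudogene are therefore uncertain. The length deposited for each gene equals its end minus its start in all 20105 genes, introns included. A further 6 columns match no sample and were not used.

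All genes were fitted with edgeR 4.0.16 (glmQLFit, glmQLFTest; R 4.3.3) with TMM scaling, filterByExpr and Benjamini-Hochberg adjustment, on the groups of each of 7 comparisons, and within feeding states. The SE beside a log2 change comes from the libraries' log2 CPM (prior count 2) and takes them as independent. CPM are TMM-scaled over all libraries, and depth (13828945 to 54434263 counts) limits members with few counts. DESeq2 1.42.0, other size factors, no filter, a replicate block and leaving out each library were tried, and the fits were tested on simulated data. Promoters are from RefSeq (GRCm38.p6) and snoRNA genes and exons from GENCODE M21.

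No label holds the column letters, and columns were mapped to groups only. The labels' mouse numbers recur in each preparation, and libraries of the same letter deviated together (r of 0.417 to 0.775 between fresh and frozen IP, 0.152 to 0.386 between IP and supernatant; different letters -0.535 to 0.0154), so the letter within a feeding state was the block. Members and lists were chosen with earlier results of these data known. Named members are the 4 largest calls each way in a comparison, fixed proteins of known role, all paralogs, the extremes in level and those failing the filter; Rpl7, Rpl6, Rpl14, Rpl27a and Rps16 were added after their values were seen. Some genes that this rule names are not reported here, but they stay in all fits and counts.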

Additional observations from a re-analysis of the deposited data

Results flagged for a closer look

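The fasting response of 14 ribosomal protein genes was larger in fresh IP than in supernatant by edgeR's interaction test at an adjusted p under 0.05, while 3.71% of all genes were called in that direction. Among them, the differences in log2 change were 1.21 for Rpl10a, 1.18 for Rpl3, 1.10 for Rps9, 1.07 for Rps28, 1.05 for Rps26 and 1.0 for Rps12. They were 0.97 for Rps20, 0.91 for Rpl41, 0.89 for Rps15a, 0.87 for Rpl13a, 0.75 for Rpl28, 0.70 for Rps19 and 0.68 for Rpl9. In Rpl3 the change was 0.82 in IP and -0.42 in supernatant, so that its difference is larger than its change in hepatocyte nuclei. IP and supernatant differ in cell types, and which cell types set the difference was not tested.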

How the results depend on the processing

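The median change of ribosomal protein genes moved by less than the spread between libraries in all 11 comparisons under every alternative run. For fasting in fresh and frozen IP, calls were 38 and 43 with DESeq2 size factors (24.7 and 22.6% of all genes called). They were 46 and 51 by DESeq2 (30 and 28.2%), and 39 and 39 without the low count filter (18.7 and 16.8%). DESeq2 called 1 member in supernatant and 28 in the difference of responses between IP and supernatant (13.5 and 16.6% of all genes). Shares of all genes are not given for the fits that leave out a library. Leaving out 1 library at a time gave 13 to 44 calls for fasting in fresh IP, 5 to 38 in frozen IP and 0 to 0 in supernatant. It gave 29 to 37 for IP minus supernatant averaged over states, 21 to 31 and 28 to 47 in the separate tests within fed and within fasted mice, 4 to 23 for the difference of responses, and 0 to 0 in comparisons of frozen with fresh IP. For single named genes, 1805 results stayed on their side of the threshold when a library was left out, 67 lost a call and 12 gained one. No named gene that was called changed direction under any of these settings. The cause of these shifts was not tested.

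For frozen minus fresh IP, edgeR without a block called 0 members. The replicate block, by letter taken as the mouse, called 6 members, 2 in fed mice alone and 1 in fasted mice alone. Of all genes it called 16.5, 6.11 and 6.91%. With frozen fed B also left out, chosen after seeing the data, it called 11, 3 and 7 members and 26.4, 9.46 and 19.8% of all genes. It gave 32 calls for IP minus supernatant (85.4% of all genes called) and 20 for the difference of responses (10.2%), and 0 for the difference between frozen and fresh responses. Fasting itself compares different mice and could not be blocked. The alternatives within feeding states were chosen after seeing the data. Depth limits members of few counts, such as Rps21, with 9 counts in frozen IP fed B.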
